A study of Mus musculus with 3 samples.

Results

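Retnlg-high neutrophils were peripheral blood (PB) barcodes whose unique molecular identifiers (UMIs, each standing for 1 captured transcript) held at least 2% S100a8 plus S100a9, under 1% Camp plus Ngp plus Ltf, and at least 0.5% Retnlg. The barcodes came from those with at least 200 detected genes and at most 10% mitochondrial UMIs, here called kept barcodes. The rule found 1217 members among 12792 kept barcodes of 3 libraries, with 167 in naive blood, 460 at D11 and 590 at D14. The members were thus chosen by their measured levels of these 6 genes, so those levels are given below as a description and support nothing.

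Each library was droplet single-cell RNA sequencing of PB leukocytes from Balb/C mice, with red cells lysed and dead cells taken out beforehand. The naive library came from blood without leukemia. All hosts are labelled wild type, and the study's methods give them as female. The D11 and D14 libraries came from mice 11 and 14 days after engraftment of BBC2, a line of leukemia cells that carry the BCR-FGFR1 fusion kinase and resemble pro-B cells, a model of stem cell leukemia and lymphoma syndrome (SCLL). BBC2 is 1 line, and the labels do not say how many mice gave each library. With 1 library per condition no test between conditions was possible, so every interval below covers counting error only, and conditions cannot be told apart from libraries.

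Neutrophils mature in the bone marrow through stages that load different granules. Myeloperoxidase and elastase mark the azurophil granules of promyelocytes, lactoferrin (Ltf), cathelicidin (Camp) and Ngp mark the specific granules of myelocytes, and the collagenase Mmp8 and the gelatinase Mmp9 come late, followed by surface receptors such as Cxcr2 and Csf3r in cells ready to leave for blood. Retnlg encodes resistin-like gamma, a secreted protein abundant in mouse neutrophils, and S100a8 and S100a9 form calprotectin.

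The members carried the general neutrophil markers in every library. Csf3r, the G-CSF receptor, stood at 3138 CPM (counts per 1e6 summed UMIs of the group) in the summed naive members, 2327 at D11 and 1651 at D14, and had a UMI in 167 of 167, 458 of 460 and 585 of 590 members. Cxcr2, the receptor for neutrophil-attracting chemokines, stood at 1666, 1362 and 1487 CPM. Elane, which encodes elastase, had no UMI in any member, and a count of 0 allows up to 4.10, 1.35 and 0.868 CPM in naive, D11 and D14 (3 UMIs). Among the 4 marker genes of the cells' working name, Retnlg, Mmp8 and Mmp9 were higher than in the Retnlg-low barcodes, which share the limit on Camp plus Ngp plus Ltf, in all 3 libraries. Mmp8, neutrophil collagenase, stood at 696, 1251 and 2895 CPM in the members against 283, 274 and 685 CPM in Retnlg-low barcodes. Mmp9, gelatinase B, stood at 728, 1173 and 1185 CPM against 491, 599 and 388 CPM. The granule-high gate (at least 1% Camp plus Ngp plus Ltf) stood above the members in every library for both, at 1366, 2454 and 3322 CPM for Mmp8 and 835, 1608 and 1769.5 CPM for Mmp9. Il1r2, the decoy receptor for interleukin-1, went against the name, with 703, 502 and 1209.8 CPM in the members and 837, 736 and 1347 CPM in Retnlg-low barcodes. In GENCODE vM21 (GRCm38), Retnlg lies at chr16:48872621-48874496 (plus strand), Mmp8 at chr9:7558456-7568485 (plus), Mmp9 at chr2:164940780-164955850 (plus), Lcn2 at chr2:32384633-32388252 (minus) and Il1r2 at chr1:40074079-40125231 (plus). The shape of the nucleus was not measured, so the cells are called Retnlg-high neutrophils here.

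**Figure D1:**
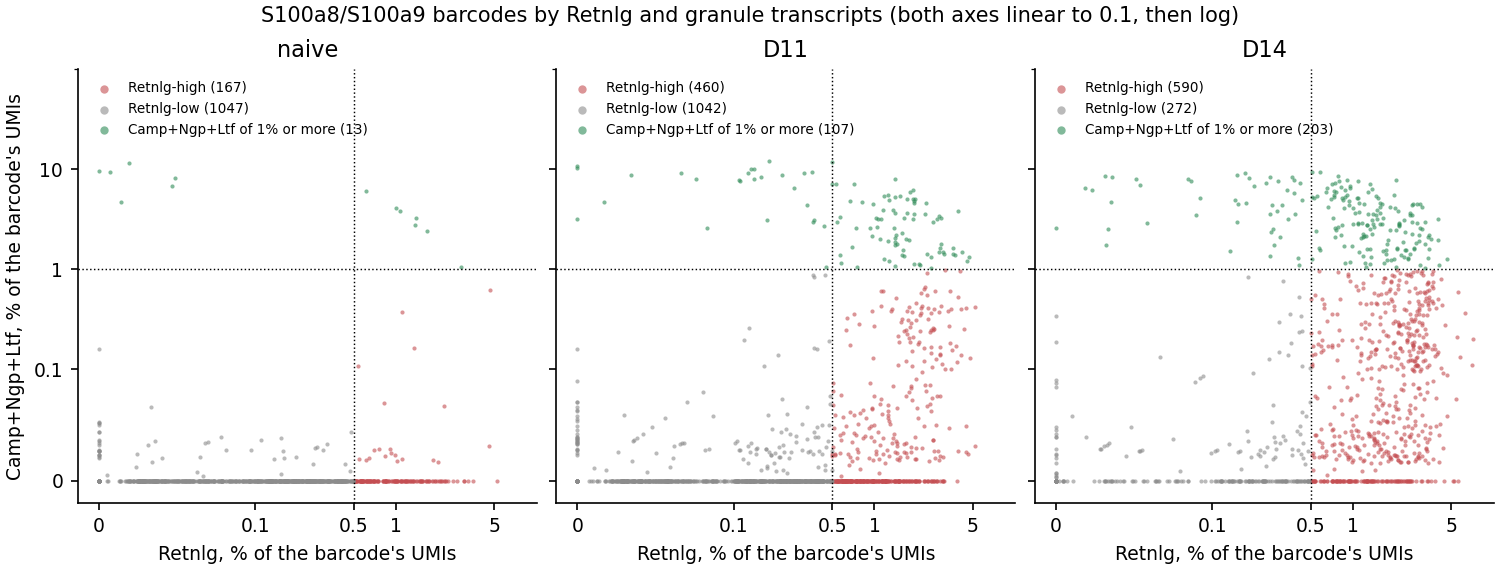
Each point is a barcode with at least 2% S100a8 plus S100a9 UMIs, by its percent of Retnlg (x axis) and of Camp plus Ngp plus Ltf (y axis), in the naive, D11 and D14 libraries, both axes linear to 0.1% and logarithmic above. Dotted lines mark 0.5% and 1%, and the Retnlg-high quadrant (red) holds 167, 460 and 590 barcodes.

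Members ranged widely in Retnlg within the gate, with no gap at its threshold. The median Retnlg share was 0.910% of a member's UMIs in naive, 1.19% at D11 and 1.82% at D14. The highest single members reached 5.21%, 5.21% and 7.097%. Just inside the threshold, from 0.5% to 0.6%, lay 34 naive, 50 D11 and 39 D14 members, and just outside it, from 0.4% to 0.5%, lay 40, 58 and 34 barcodes. Members held a median of 4084 UMIs in naive, 4175.5 at D11 and 5130 at D14, and their summed UMIs came to 731123, 2227533 and 3454285. Mitochondrial transcripts, a sign of RNA quality, took 0.654%, 1.03% and 1.65% of these sums, and 763, 784 and 1980 barcodes of the libraries were over the 10% limit. The part of this difference in the results below was not tested. Of all deposited barcodes, 12, 14 and 18 were shared between naive and D11, naive and D14, and D11 and D14, and 3 members were among them.

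The start-site windows of the gating gene and of 2 granule genes that moved with the libraries are shown because all 3 hold the letters TTGNNCAA, a palindrome like the core of sites bound by C/EBP factors, which act in granulocyte differentiation. Each window runs from 250 bases before to 50 bases after the RefSeq start of transcription (GRCm38.p6), 5′ to 3′ on the gene's strand, with the match in capitals. The motif was chosen after the windows had been read, and reads the same on both strands. The Retnlg window is chr16:48872358-48872657 (plus strand), the Mmp8 window chr9:7558179-7558478 (plus strand) and the Lcn2 window chr2:32387690-32387989 (minus strand).
Retnlg: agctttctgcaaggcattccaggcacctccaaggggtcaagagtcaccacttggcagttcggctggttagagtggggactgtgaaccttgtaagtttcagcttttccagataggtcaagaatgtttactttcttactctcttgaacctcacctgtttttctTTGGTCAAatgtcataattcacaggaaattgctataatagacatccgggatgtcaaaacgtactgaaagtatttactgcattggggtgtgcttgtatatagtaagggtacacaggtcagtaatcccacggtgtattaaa
Mmp8: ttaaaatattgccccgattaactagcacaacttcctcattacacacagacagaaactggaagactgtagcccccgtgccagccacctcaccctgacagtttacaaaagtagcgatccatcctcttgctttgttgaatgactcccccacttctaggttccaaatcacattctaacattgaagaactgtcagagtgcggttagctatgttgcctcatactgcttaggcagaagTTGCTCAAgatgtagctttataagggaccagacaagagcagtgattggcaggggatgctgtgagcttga
Lcn2: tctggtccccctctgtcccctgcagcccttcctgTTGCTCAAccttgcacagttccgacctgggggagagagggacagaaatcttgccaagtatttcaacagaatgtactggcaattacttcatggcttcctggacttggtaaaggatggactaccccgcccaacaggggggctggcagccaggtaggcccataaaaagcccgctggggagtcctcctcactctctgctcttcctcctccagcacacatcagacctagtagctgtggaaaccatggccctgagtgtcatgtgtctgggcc
The match began 89 bases before the start of Retnlg, 19 before that of Mmp8 and 216 before that of Lcn2. Over all promoters of this length, 2102 of 32851 windows held the letters (6.40%). The 12 genes with the largest differences above naive at D14 by the naming rule are given below. Of these, 11 had a window and 1 (Slc24a3) held a match. A match is a description and not a bound site.

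The share of members was higher in both leukemic libraries. Members made up 13.6% of S100a8/S100a9 barcodes in naive blood (95% Clopper-Pearson interval 11.7 to 15.7, 167 of 1227), 28.6% at D11 (26.4 to 30.9, 460 of 1609) and 55.4% at D14 (52.4 to 58.4, 590 of 1065). The 3 intervals did not overlap. Over naive, the ratio of shares was 2.10 at D11 (Katz 95% interval 1.79 to 2.47) and 4.07 at D14 (3.50 to 4.73). Of all kept barcodes, members made up 4.38%, 10.1% and 13.4%, ratios of 2.30 (1.94 to 2.73) and 3.05 (2.58 to 3.602). Over the same barcodes the whole S100a8/S100a9 class was 1.09 times its naive share at D11 and 0.749 times at D14.

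The 2 neighboring gates moved in opposite ways. Retnlg-low barcodes made up 85.3% of the S100a8/S100a9 class in naive, 64.8% at D11 and 25.5% at D14. Barcodes with at least 1% Camp plus Ngp plus Ltf, the granule-high gate, made up 1.06% (13 barcodes), 6.65% (107) and 19.1% (203). A Retnlg threshold of 1% in place of 0.5% gave a D14 ratio of 7.197, and a threshold of 0.25% gave 2.46, so the size of the ratio depends on where the line is drawn and its direction did not. Gating each barcode after thinning to 500 UMIs gave 3.26 at D14.

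**Figure D2:**
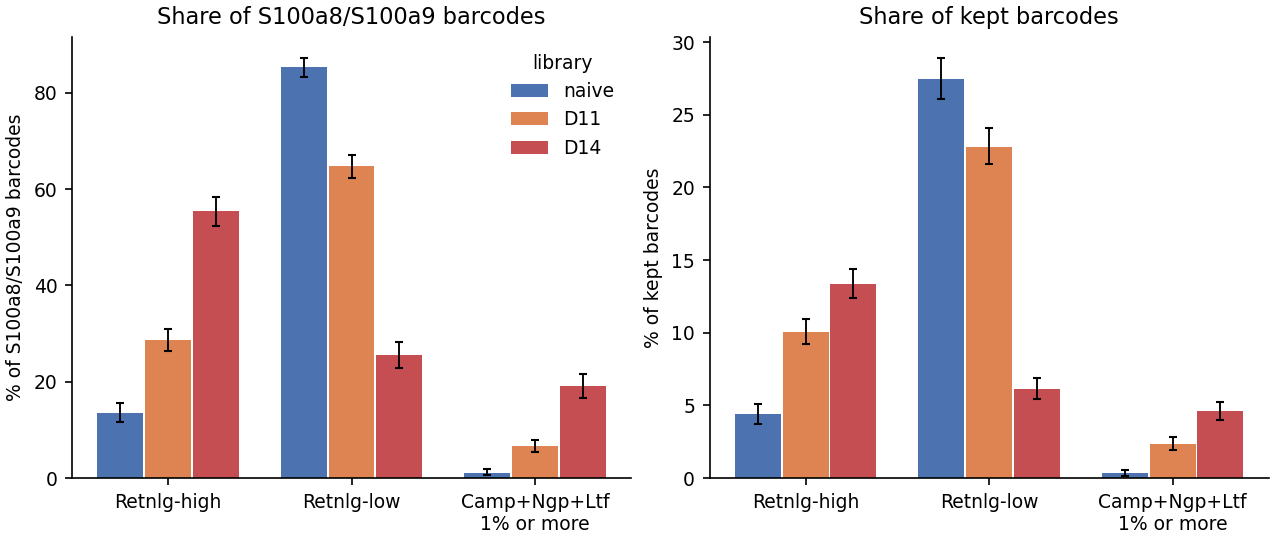
Bars are the percent of S100a8/S100a9 barcodes (left) and of kept barcodes (right) in each gate, colored by library, with 95% Clopper-Pearson intervals for counting error. The Retnlg-high bars step up from 13.6% to 28.6% to 55.4% on the left while the Retnlg-low bars step down.

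Summed transcripts of the members were then compared between libraries, by the log2 ratio of CPM with 1 CPM added and over genes of at least 50 CPM in either library. At D11, 81 of 2917 genes were at least 2-fold higher than in naive (2.78%) and 52 were at least 2-fold lower (1.78%). At D14, 201 of 2981 were higher (6.74%) and 177 lower (5.94%). In either direction these were 133 genes (4.56%) and 378 genes (12.7%). Across all genes the median log2 ratio lay at -0.10 for D11 and -0.13 for D14. Scaling by TMM factors raised the medians to 0.06 and 0.03 and gave 115 higher and 31 lower genes at D11 and 263 and 103 at D14, so list medians below are read beside the median of all genes.

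Specific granule genes outside the rule included several of the higher genes. Lcn2, the iron-siderophore-binding lipocalin, stood at 729 CPM in naive, 2239 at D11 and 3833 at D14, a log2 ratio of 1.62 and 2.39 (95% interval 2.27 to 2.52 at D14). Cd177, a surface protein of neutrophils kept in specific granules, stood at 78.0, 208 and 446 CPM (1.40 and 2.501). Olfm4, olfactomedin 4, stood at 84.8, 285 and 497 CPM (1.74 and 2.54). In all 3 genes the order was naive, D11, D14, with no overlap of counting intervals at either step. Of the 8 measured members of the list, 6 were at least 2-fold higher at D14 and none was lower, beside 6.74% of all genes, and their median log2 ratio was 1.98. Among the 6, Chil3 reached 50 CPM only at D14 and so could enter only by being higher. The D14 count and median that hold it are therefore a description. At D11, 4 of 7 were higher (2.78% of all genes), with a median of 1.07. In members with few transcripts of other lineages (defined below) the medians were 0.94 at D11, short of 2-fold, and 2.08 at D14. The 2 that stayed within 2-fold at D14 were Hp, haptoglobin (0.10), and Lyz2, lysozyme (0.42), which stood at 2403, 5039 and 3223 CPM, highest at D11. Genes of the rule moved alongside as a description, with Ngp at 82.1, 785 and 1701 CPM and Camp at 43.8, 159 and 222 CPM inside the gate that holds their sum under 1%. Of the 32 naive Camp UMIs, 26 were in 1 barcode. With the limit on Camp plus Ngp plus Ltf at 0.5% the median of the specific granule list at D14 was 1.90.

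Gelatinase granule and secretory vesicle genes followed with smaller differences. Mmp8 was 0.84 above naive at D11 and 2.05 at D14 on the log2 scale (1.93 to 2.19 at D14). Mmp9 was 0.69 and 0.70 above. Cd14, the lipopolysaccharide co-receptor, stood at 35.6, 80.4 and 186 CPM (1.15 and 2.35). Fpr2, a formyl peptide receptor, stood at 193, 225 and 457 CPM (0.22 and 1.24). Anxa1, annexin A1, stood at 1259.7, 2098 and 2507 CPM, just under the 2-fold line at D14 (0.99). Of 12 measured members, 4 were higher and none lower at D14 (median 0.83), beside 6.74% and 5.94% of all genes. At D11, 1 of 12 was higher (median 0.31) beside 2.78% of all genes, a count too small to read. Weighting the D11 and D14 members to the naive spread of Retnlg levels gave 0.51 for this list at D14 and 1.64 for the specific granule list. Of 8 azurophil granule genes, Ctsd, cathepsin D, was the only 1 of at least 50 CPM, at 626, 503 and 404 CPM, and Mpo had 0, 0 and 2 UMIs.

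**Figure D3:**
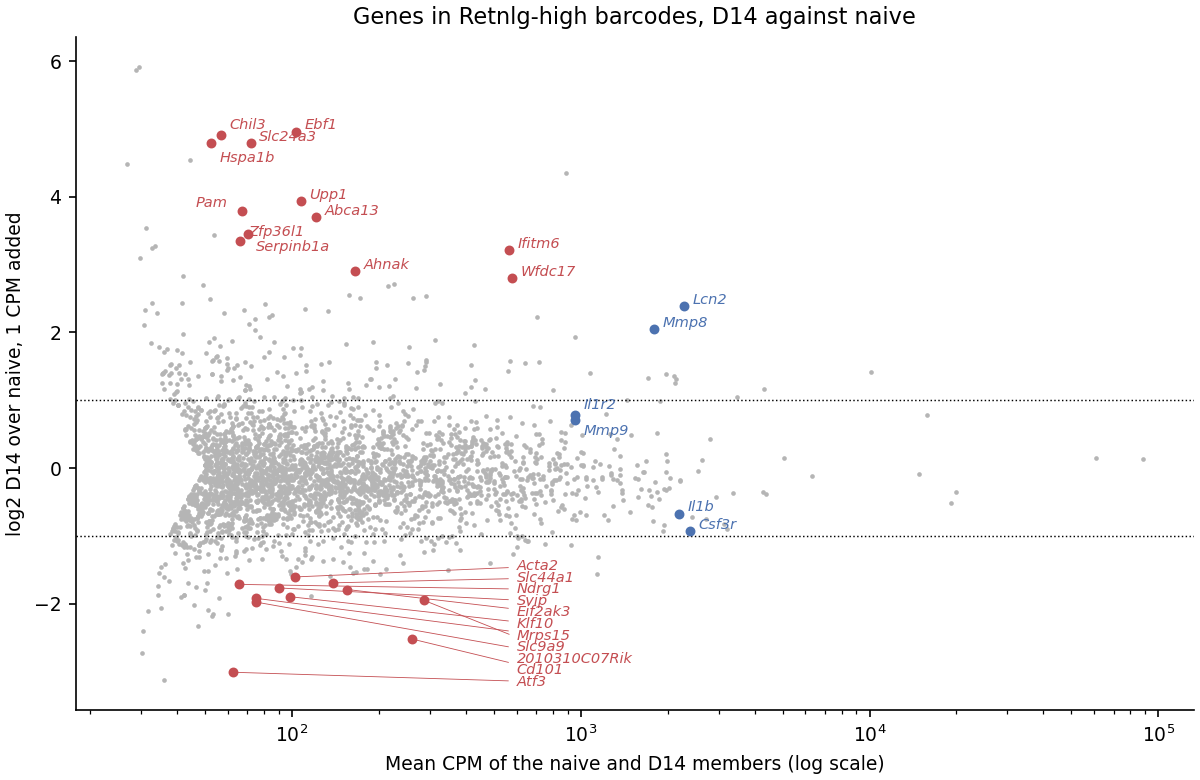
Each point is a gene of at least 50 CPM in the naive or D14 members, by mean CPM (x axis, log scale) and log2 D14 over naive (y axis), with dotted lines at 2-fold. Of the 12 largest differences in each direction by the naming rule, all 12 above naive and 11 below are red, and Mmp8, Lcn2, Mmp9, Il1r2, Il1b and Csf3r are blue, with Lcn2 at 2.39 and Csf3r at -0.93.

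The largest of the named differences above naive were in genes near 0 in the naive members. Slc24a3, a sodium, calcium and potassium exchanger, had 3 naive UMIs and stood at 16.2 CPM at D11 and 139.8 CPM at D14, 34.1 times naive (95% interval 11.6 to 166). Chil3, the chitinase-like protein Ym1, had 2 naive UMIs and stood at 22.9 and 111 CPM, 40.5 times naive at D14 (11.1 to 336). Hspa1b, an inducible Hsp70 chaperone with a near-identical copy in Hspa1a, had 2 naive UMIs and stood at 14.8 and 102 CPM, 37.4 times naive (10.3 to 310). The D11 value of Chil3 rested on 8 members, with 32 of its 51 UMIs in 1 barcode, and its log2 ratio of 2.68 became -0.27 without the highest doublet scores and 0.33 in members with few transcripts of other lineages.

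Among genes with more naive UMIs, Ifitm6, an interferon-induced transmembrane family gene, stood at 109, 372 and 1022 CPM (1.76 and 3.21, 95% interval 2.90 to 3.56 at D14). Wfdc17, a secreted whey acidic protein, stood at 144, 286 and 1011 CPM (0.99 and 2.81, 2.54 to 3.11). Abca13, an ABC transporter, stood at 16.4, 52.1 and 226 CPM (1.61 and 3.71). Each of these was lowest in naive and highest at D14. Upp1, uridine phosphorylase, stood at 12.3, 79.0 and 202 CPM (2.59 and 3.93). Pam, an enzyme of peptide amidation, Serpinb1a, an inhibitor of neutrophil serine proteases, and Zfp36l1, an RNA-binding protein that promotes mRNA decay, were 3.79, 3.45 and 3.35 above naive at D14. Ahnak, a large scaffold protein, stood at 38.3, 89.8 and 293 CPM, with 20 of its 28 naive UMIs in 1 barcode. Its D11 ratio of 1.21 became -0.30 in members with few transcripts of other lineages, and its D14 ratio of 2.90 became 2.84.

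Ebf1, a B lineage factor, had the highest log2 ratio with 1 CPM added (4.96) among the 12 genes named above naive. Naming asked for at least 100 CPM in either library. This left out Vpreb3, a marker of pro-B leukemia cells, at 0 in naive and 57.6 CPM at D14. By the plain ratio Ebf1 was below Chil3 and Hspa1b. It stood at 5.47 CPM in naive, 102 at D11 and 201 at D14 (36.7 times naive, 95% interval 14.3 to 135), and 430 of its 693 D14 UMIs were in 1 barcode. The 6 markers of pro-B leukemia cells summed to 5.47, 110.0 and 299 CPM in the members, with Ebf1 the most abundant in every library, Rag1 at 0 in all 3 and Dntt at 0 in naive and D11. Over all kept barcodes Ebf1 stood at 589, 657 and 1839.8 CPM. At least 1 pro-B marker UMI was present in 3 naive, 43 D11 and 261 D14 members. A limit was set on 53 markers of other lineages, which left out Cd3d, Csf1r, Ly6c2, Treml4 and Cd300ld. Members with under 0.1% UMIs in these 53 markers and under 1% hemoglobin UMIs numbered 164, 415 and 508. Among them Ebf1 was 1.76 above naive at D11 and 3.97 at D14, against 3.9975 and 4.96 over all members. With members weighted to the naive spread of Retnlg levels it was 6.045 at D14. In the members with few other-lineage transcripts, without that weighting, Mmp8 was 2.20 above naive at D14, Wfdc17 2.93, Ifitm6 3.32 and Cd101 -2.504.

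The 12 genes lowest at D14 relative to naive by the naming rule are given next. Atf3, a stress-induced repressor, stood at 112 CPM in naive, 37.7 at D11 and 13.03 at D14, a log2 ratio of -1.55 and -3.01 (-3.66 to -2.56 at D14). With members weighted to the naive spread of Retnlg levels the D14 ratio was -2.26, less far from naive than that of Cd101 (-2.45). Cd101, a surface immunoglobulin-like protein that appears late in neutrophil maturation, stood at 446, 241 and 76.7 CPM (-0.88 and -2.52, -2.78 to -2.30). Slc9a9, a sodium-proton exchanger, stood at 457, 272 and 117 CPM (-0.75 and -1.95). All 3 were highest in naive and lowest at D14. Eif2ak3, the endoplasmic reticulum stress kinase PERK, stood at 242, 137 and 69.2 CPM (-0.82 and -1.79), and Klf10, a TGF-beta-induced transcription factor, at 156, 62.4 and 41.1 CPM (-1.31 and -1.90). Slc44a1, a choline transporter, was -1.69 at D14, Ndrg1 -1.72, Svip -1.77, Mrps15, a mitochondrial ribosomal protein, -1.92, 2010310C07Rik -1.98 and Acta2, smooth muscle actin, -1.61. At D11, 6 of the 12 lowest were at least 2-fold lower (1.78% of all genes) and 11 of the 12 highest at least 2-fold higher (2.78%), but the genes were chosen to have the same sign at D11 and both comparisons share the naive library, so nothing is read from these counts.

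**Figure D4:**
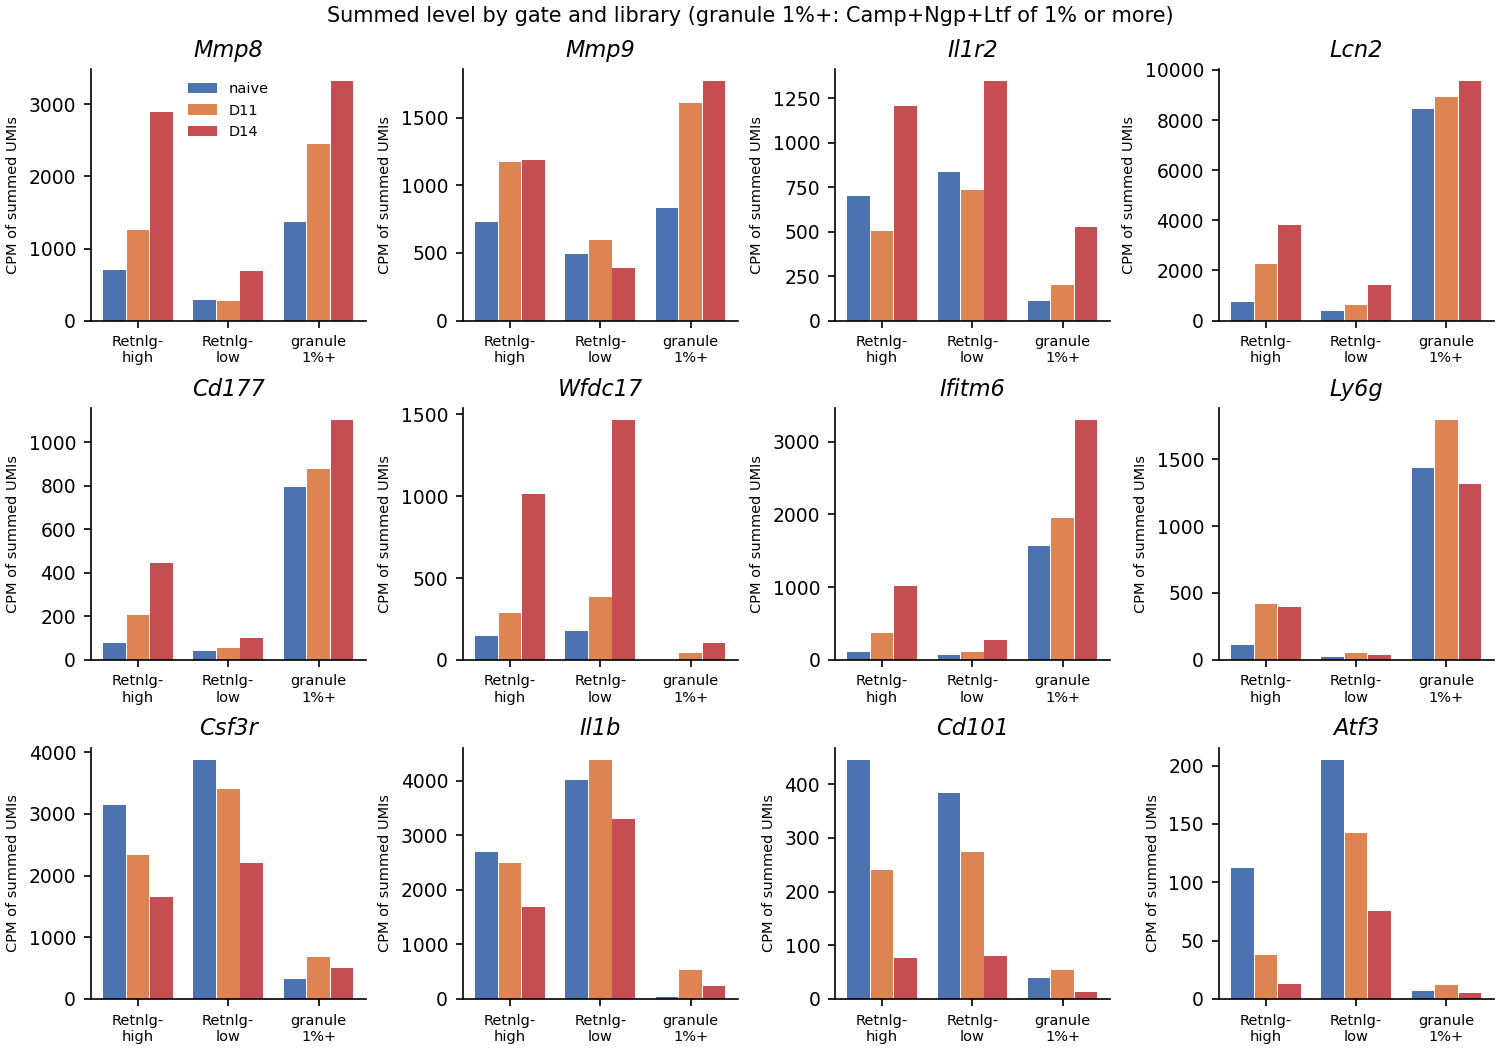
Bars are CPM of summed UMIs of 12 genes by gate (Retnlg-high, Retnlg-low and Camp plus Ngp plus Ltf of at least 1%) and library. Mmp8 in Retnlg-high barcodes goes from 696 to 1251 to 2895 CPM and Cd101 from 446 to 241 to 76.7 CPM, and Il1r2 is at least as high in Retnlg-low as in Retnlg-high barcodes in each library.

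Of 29 measured receptors for chemoattractants, growth factors and adhesion, 2 were higher and 1 lower at D14, close to the shares over all genes (6.74% and 5.94%), and none passed 2-fold at D11 (4.56% of all genes in either direction), with medians of -0.16 and -0.12. Csf3r was -0.43 at D11 and -0.93 at D14 (-0.997 to -0.86), lowest at D14 and short of 2-fold. Cxcr2 was -0.16 at D14. The 2 higher were Fpr2 and Clec4e, the receptor Mincle, at 144, 226 and 295 CPM (1.03 at D14), and the lower was Ptafr, the receptor for platelet-activating factor, at 275, 190.3 and 105 CPM (-1.38).

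Cytokine transcripts moved in both directions. Il1b, interleukin-1 beta, stood at 2699, 2496 and 1694 CPM (-0.11 and -0.67, -0.75 to -0.60 at D14). Csf1, the growth factor of macrophages, stood at 219, 114 and 102 CPM (-1.09 at D14), and Il15 at 186, 163 and 90.6 CPM (-1.03). Osm, oncostatin M, moved the other way, at 32.8, 71.4 and 96.1 CPM (1.52). Of 9 chemokine and cytokine genes, 1 was higher and 2 lower at D14 (median -0.67), beside 6.74% and 5.94% of all genes. At D11, 1 was higher and 1 lower (median -0.26), beside 2.78% and 1.78% of all genes. These counts are too small to read against those shares. Of 9 IL-1 and inflammasome genes, 2 were higher at D14 (6.74% of all genes), Casp1 at 19.1, 51.2 and 52.1 CPM (1.40) and Casp4 at 111, 172 and 228 CPM (1.03), and none was lower (median 0.17). Il1r2 was -0.49 at D11 and 0.78 at D14, lowest at D11 and highest at D14.

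Myeloid suppressor genes were compared next. Wfdc17, Osm and Ifitm1 (289, 305 and 646 CPM, 1.16 at D14) were the 3 of 12 measured genes higher at D14, and Tgfb1, the cytokine TGF-beta 1, was the 1 lower, at 156, 102 and 66.0 CPM (-1.23). Cd84, often used as a marker of suppressor neutrophils, stood at 739, 714 and 636 CPM, within 2-fold. The median was 0.17 at D14. Over all genes 6.74% were higher and 5.94% lower, so the 1 lower gene is near the share over all genes. Of 6 NADPH oxidase subunits, which make the respiratory burst, Cybb alone passed 2-fold, at 129.9, 270.3 and 325 CPM (1.05 and 1.32).

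Among interferon-stimulated genes at D14, Herc6, Gbp2, Irgm1 and Zbp1 were higher (4 of 15) and Slfn5 was lower (-1.51), with a median of -0.15, beside 6.74% and 5.94% of all genes. The 1 lower gene is near the share over all genes. Isg15, a ubiquitin-like modifier, stood at 229.8, 282 and 136 CPM (0.30 and -0.75), highest at D11 and lowest at D14. At D11 the list's median was 0.27 with 1 of 14 higher (2.78% of all genes). Of 19 immediate early and NF-kB feedback genes, Jun (50.6, 98.3 and 292 CPM, 2.51) and Ier3 (98.5, 184 and 293 CPM, 1.56) were higher at D14 and Atf3 and Fosb (-1.20) lower, with a median of -0.14. Fos and Junb were within 2-fold (-0.39 and -0.31).

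Acute phase and cystatin A genes included 4 of 11 higher at D14 (6.74% of all genes), Lcn2, Lrg1 (364, 626 and 1073 CPM, 1.56), Wfdc21 (1184, 1727 and 3024 CPM, 1.35) and Stfa3 (1.67). Of these, Lcn2, Lrg1 and Wfdc21 were also in the specific granule list and among its higher genes, so the 2 lists are not separate results. The median of the acute phase and cystatin A list was 0.42, or 0.01 with members weighted to the naive spread of Retnlg levels. The cystatin A genes Cstdc4 and Cstdc5 were lowest at D11 (2158, 783 and 1565 CPM, and 1324, 566 and 1228 CPM), and members of this tandem family share sequence, so their counts are uncertain. Of 7 heat shock chaperones only Hspa1b passed 2-fold (median 0.49, or 0.19 in members with few other-lineage transcripts). Of 8 S100 and annexin genes outside the rule, S100a4 (16.4, 77.2 and 57.6 CPM, 1.75) and Anxa3 (34.2, 83.1 and 103 CPM, 1.57) were higher at D14. That list's median was 0.54, or 0.29 in members with few other-lineage transcripts. Cd14, Casp1, Osm, Herc6, Gbp2, Irgm1, Zbp1, Hspa1b, Tlr2, S100a4 and Anxa3 were under 50 CPM in naive and reached it only where they were higher, so the list counts and medians that hold them are a description and support nothing.

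In the lists of cell maintenance genes 0 or 1 member each passed 2-fold at D14, apart from the toll-like receptors, and with 12.7% of all genes past it in either direction, lists this short do not stand apart by such counts. None of 14 granulocyte transcription factors passed 2-fold at D14 (median -0.13, that of all genes), with Cebpb at 700.3, 994 and 1014 CPM (0.53) and Cebpd at 905, 757 and 536 CPM (-0.75). None of 6 Bcl2 family genes (median -0.35), 9 MHC class I genes (0.11) or 2 measured cell cycle genes passed it. Hk2, hexokinase 2, was the 1 lower of 13 glycolysis genes, at 88.9, 38.2 and 22.9 CPM (-1.91), beside a median of 0.43. Slc7a11, the cystine transporter, was the 1 lower of 10 Nrf2 and redox genes, at 412, 343 and 195 CPM (-1.07, median 0.30). That median was 0.09 in members with few other-lineage transcripts and 0.08 with members weighted to the naive spread of Retnlg levels. Tlr2 and Cd14 were the 2 higher of 7 toll-like receptor genes (median 0.08). No MHC class II gene reached 50 CPM at D14, and Cd74 did at D11 (89.8 CPM) beside Igkc of B cells at 77.7 CPM.

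The members' own Retnlg level ran alongside several of these genes. Among naive members 94 had 0.5% to 1% Retnlg, 55 had 1% to 2% and 18 had 2% or more. The counts were 192, 159 and 109 at D11 and 134, 193 and 263 at D14, so the highest bin held 10.8%, 23.7% and 44.6% of members. In naive members Lcn2 stood at 707, 741 and 809 CPM from the lowest to the highest bin. At D11 it stood at 1262, 2330 and 3724 CPM, and at D14 at 2003, 3569 and 4862 CPM. Counting intervals of the 3 naive bins overlapped, and those of the D11 and D14 bins did not. Mmp8 stood at 599, 791 and 926 CPM in naive, 699, 1379.8 and 1991 at D11, and 1595, 2737 and 3606 at D14. Within the lowest bin alone, Mmp8 at D14 was 1.41 above naive and Lcn2 was 1.5002 above, and within the highest bin they were 1.96 and 2.59 above. Cd101 was lower at D14 than in naive in every bin (-2.71, -1.99 and -2.53). Ifitm6 was higher at D14 in every bin (2.12, 3.14 and 3.04). Csf1 did not keep its direction, at -1.26, 0.21 and -0.73, and Camp and Stfa2 also changed sign between bins. The naive level of Camp in the highest bin, 339 CPM, came from 18 barcodes, and 26 of the 32 naive Camp UMIs were in 1 barcode.

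**Figure D5:**
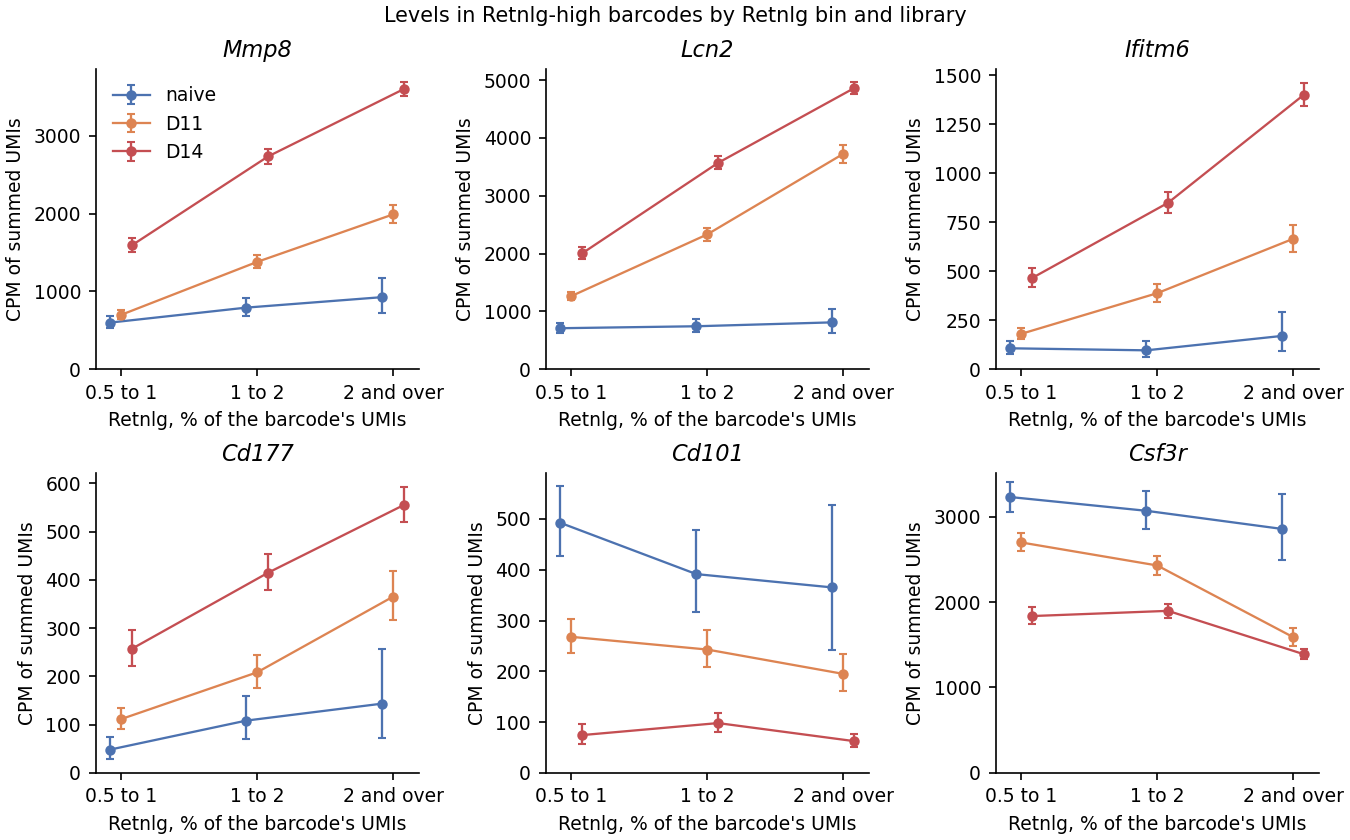
Points are CPM of 6 genes in members summed by Retnlg level (0.5% to 1%, 1% to 2%, and 2% and over) and library, with 95% Poisson intervals for counting error. Lcn2 stays between 707 and 809 CPM across the naive bins and climbs from 2003 to 4862 CPM across the D14 bins.

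Shares of members with a UMI at equal depth followed the order of the CPM for some genes, and for others counting error hid the order. After thinning to 2000 UMIs, which left out 3, 37 and 36 shallower members, Mmp8 was seen in 56.1%, 74.5% and 94.8% of naive, D11 and D14 members, and in 68.3%, 83.5% and 96.8% unthinned. Wfdc17 was seen in 12.2%, 24.6% and 53.8% after thinning (20.4%, 33.7% and 66.6% unthinned), and Cd101 in 61.6%, 35.5% and 14.1% (76.6%, 55.0% and 26.6%). Barcodes with at least 3 Cd79a or Cd79b UMIs, B lineage cells that should lack these genes, showed Mmp8 in 0.276%, 0.556% and 1.49%, Wfdc17 in 1.66%, 1.39% and 0.248%, and Cd101 in 0, 0.556% and 0 of thinned barcodes. Their median depth was 6436, 7059 and 30861.5 UMIs. Mmp9 was seen in 70.7%, 87.7% and 85.4% of thinned members, Cxcr2 in 93.9%, 92.0% and 94.4%, and Cstdc5 in 44.5%, 31.9% and 46.6%. Their orders differ from those of their CPM only between shares whose counting intervals overlap, so no difference of order is read. Hspa1b was seen in 8.30% of thinned D14 members and in 0, 2.22% and 8.45% of such naive, D11 and D14 B lineage barcodes, which can express this chaperone themselves and so give no background share for it. Slc24a3 was seen in 21.7% against 0.124%.

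Against Retnlg-low barcodes of the same library, the members' leading differences included several neutrophil surface and granule genes. The rule separates these gates, so the values are a description. Ly6g, the surface antigen used to sort mouse neutrophils, stood at 114, 415 and 395 CPM in members, 22.6, 49.6 and 33.9 in Retnlg-low barcodes, and 1432, 1791 and 1315 in the granule-high gate. Adpgk, an ADP-dependent glucokinase, stood at 58.8, 254 and 392 CPM in members and 7.71, 29.6 and 67.1 in Retnlg-low barcodes. Syne1, a nuclear envelope spectrin-repeat protein, stood at 398, 1041 and 1514 against 169, 252 and 303 CPM. The other genes with the highest mean log2 ratio over Retnlg-low were Stfa2 (2.66), Stfa3 (2.44), Anxa3 (1.96), Mmp8 (1.85), Cstdc5 (1.77), Olfm4 (1.72) and Cd177 (1.65). In all, 22 of 3057 genes were at least 2-fold higher in members in naive (0.720%), 76 of 2889 at D11 (2.63%) and 102 of 3335 at D14 (3.06%).

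Genes lower in members than in Retnlg-low barcodes included Atf3, Csf1, Cd244a and Plac8, with mean log2 ratios of -1.73, -1.36, -1.42 and -1.36, the ribosomal protein genes Rpl12, Rpl14, Rpl3, Rps15a and Rpl32 (-1.55 to -1.31), and Chil3 (-1.28). For Chil3 the ratio was -1.22 in naive, 0.46 at D11 and -3.07 at D14, so its mean rests on the D14 Retnlg-low barcodes, at 939 CPM. The 5 ribosomal protein genes were also closest to even at D11. At D14, 525 genes were at least 2-fold lower in members (15.7%), against 88 in naive (2.88%) and 51 at D11 (1.77%). The D14 Retnlg-low barcodes also held transcripts of classical monocytes, with F13a1 at 545 CPM and 7 such markers summing to 1723 CPM, against 324 CPM in D14 members, and of early granulocytes and dividing cells, with Elane at 190.2, Mpo at 76.7 and Mki67 at 95.8 CPM, so at D14 this gate was not purely mature. Their part in the comparison was not tested. The 12 genes named as highest over naive in D14 members were all at least 2-fold above naive in Retnlg-low barcodes too. Of the 12 named as lowest, 11 were at least 2-fold below, Svip being the exception. Over genes of at least 50 CPM in that gate the shares were 13.9% and 4.51%. The named genes were chosen by their levels in D14 members and met no CPM minimum in Retnlg-low barcodes, so nothing is read from these counts. At D11 the Retnlg-low barcodes had 20 of 3041 genes higher (0.658%) and 26 lower (0.855%). Both gates come from the same libraries.

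Against the granule-high gate, also a description, members of naive blood had 1139 of 3277 genes at least 2-fold higher (34.8%) and 586 lower (17.9%), the granule-high gate there being 13 barcodes. At D11, 318 of 2889 were higher (11.0%) and 160 lower (5.54%), and at D14, 229 of 2873 were higher (7.97%) and 139 lower (4.84%). Lcn2 stood at 8447, 8917 and 9549 CPM and Cd177 at 796, 875 and 1100.1 CPM in the granule-high gate, above the members in every library, and Csf3r at 325, 687 and 509 CPM, below them.

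Transcripts listed as markers of other cells were present in members and differed between libraries. Values in members with few of them, by the 53 markers used above, are given here and beside the genes and lists that moved most. Hemoglobin took 1.14% of member UMIs in naive, 3.58% at D11 and 2.74% at D14, and 3891 of 4037 naive Hbb-bs UMIs were in 1 barcode. The 7 T cell markers summed to 186, 264 and 176 CPM, of which Cd3d gave 159, 249 and 142 CPM while Cd3e had 1, 0 and 6 UMIs. Over all kept barcodes Cd3d stood at 245, 64.8 and 28.4 CPM, and in the granule-high gate at 391, 398 and 250 CPM. Its level in members was above that of kept barcodes at D11 and D14, so it is not read as a sign of T cells. The 8 B cell markers summed to 42.4, 207 and 95.5 CPM, led by Ighm in naive and Igkc at D11 and D14, with Cd79b and Fcmr at 0 in naive. The 7 classical monocyte markers summed to 193, 448 and 324 CPM, led by Csf1r in naive and Ly6c2 at D11 and D14, with F13a1 and Vcan at 0 in naive. Ly6c2 stood at 99.8, 149 and 69.3 CPM over all kept barcodes and at 272, 557 and 425 CPM in the granule-high gate. The 8 non-classical monocyte markers summed to 397, 263 and 318 CPM. Among them Treml4 stood at 200, 67.8 and 77.9 CPM in members and 57.1, 44.6 and 71.5 CPM over all kept barcodes. The source of Cd3d, Ly6c2 and Treml4 in members was not tested. NK cell (6.84, 44.9 and 4.92 CPM), platelet (28.7, 5.84 and 33.9), eosinophil (8.21, 2.69 and 2.32), basophil and mast cell (4.10, 0.449 and 0.289) and progenitor markers (1.37, 3.59 and 6.66) had lower sums. With members of few other-lineage transcripts, 65 genes were higher and 60 lower at D11, and 185 and 200 at D14.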

How the data were processed

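PB leukocytes of 1 naive, 1 D11 and 1 D14 library were profiled with 10x 3′ version 3 reagents. The deposited counts are UMIs per gene and barcode from the authors' Cell Ranger runs on mm10. The submitters' processing notes give Cell Ranger 7.1.0 and the matrix headers 5.0.1. Libraries held 5386, 8536 and 9337 barcodes with 30362408, 57640396 and 65861863 UMIs, of which 3811, 4567 and 4414 were kept.

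UMIs of members were summed per library and given as CPM. Ratios carry exact conditional binomial intervals, shares Clopper-Pearson intervals and ratios of shares Katz intervals, at 95%. Sums were checked on simulated data. Counts at 0 were read against a floor of 3 UMIs. Of 32285 identifiers, 38 symbols naming more than 1 were left out of gene comparisons. Doublets were not removed in the main values. Leaving out the highest Scrublet scores (scanpy 1.11.5) was an alternative. TMM factors came from edgeR 4.0.16 and size factors from DESeq2 1.42.0 in R 4.3.3. Other analysis used Python 3.11.15, scipy 1.17.1 and pandas 2.3.3.

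The named genes were the marker and gating genes, the 12 largest differences each way between naive and D14 with at least 100 CPM in either and the same sign at D11 (leaving out gating, mitochondrial and hemoglobin genes), the leading genes of 21 lists and those past 2-fold, and the 10 highest and lowest against Retnlg-low. Some genes are not reported here. Members and lists were chosen with earlier results of these data known. Promoter windows came from RefSeq.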

Additional observations from a re-analysis of the deposited data

Results flagged for a closer look

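Of 2855 genes that reached 50 CPM in naive or D14 in each of the 2 gates, 9 moved in opposite directions between naive and D14: members went one way and Retnlg-low barcodes the other, in the same direction at D11, by at least 1 apart on the log2 scale and with counting intervals that left out no change in both. The requirement on the intervals was added after a first, longer list had been seen, and the difference between gates was not tested. The D14 Retnlg-low barcodes number 272 and hold monocyte transcripts, whose part was not tested. Each value is the log2 ratio of D14 over naive in members less that in Retnlg-low barcodes.

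Higher in D14 members and lower in D14 Retnlg-low barcodes were Mcu, the mitochondrial calcium uniporter, with 1.44 (67.0, 108 and 148 CPM in naive, D11 and D14 members against 101, 86.0 and 81.1 CPM), Adam8, a surface metalloprotease, with 1.27 (212, 281 and 415 against 181, 179 and 146 CPM), Cdk11b with 1.05 (144, 184 and 221 against 125, 107 and 92.1 CPM) and Pnpla8, a phospholipase, with 1.03 (97.1, 115 and 143 against 84.6, 66.5 and 60.4 CPM).

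The opposite held for Sec61g, a subunit of the protein translocation channel, with -2.01 (71.1, 56.1 and 51.0 against 59.5, 77.2 and 175 CPM), Uqcrq, a subunit of respiratory complex III, with -1.35 (104, 75.4 and 63.4 against 82.8, 84.0 and 130.5 CPM), and Slc25a5, the mitochondrial ADP/ATP carrier, with -1.21 (115, 101 and 88.9 against 137, 140.2 and 247 CPM). It also held for Chka, choline kinase alpha, with -1.10 (109, 66.0 and 64.0 against 66.2, 81.6 and 84.0 CPM), and Mat2a, which makes S-adenosylmethionine, with -1.02 (90.3, 75.0 and 67.2 against 64.9, 97.7 and 98.8 CPM).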

How the results depend on the processing

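No paired analysis was possible because each condition is 1 library, and no library could be left out. The member share stayed above naive under every alternative. Its ratio over kept barcodes at D11 and D14 was 3.06 and 3.90 when 500 genes and no more than 5% mitochondrial UMIs were required, 1.72 and 2.15 over every deposited barcode, and 3.20 and 3.91 over barcodes with under 5% hemoglobin. Its ratio over S100a8/S100a9 barcodes was 1.59 and 2.46 with Retnlg of at least 0.25%, 2.80 and 7.197 with 1%, 3.29 at D14 with S100a8 plus S100a9 of at least 5%, and 3.26 at D14 after thinning to 500 UMIs. Counts of genes past 2-fold followed the CPM minimum, with 197 higher and 180 lower at D11 and 419 and 354 at D14 at 20 CPM, 22 and 9 and 67 and 52 at 200 CPM, and 1747 and 1595 and 2612 and 1629 with none. With TMM factors 31 were lower at D11 and 103 at D14, so higher genes made up 78.8% and 71.9% of those past 2-fold against 60.9% and 53.2%, and 75.5% and 67.8% with DESeq2 size factors. The share was lower at 48.0% and 44.4% without the highest Scrublet scores, 41.1% and 46.1% with Retnlg of at least 1%, and 50.4% and 48.4% after thinning, so which direction held more genes depends on the setting. With Retnlg of at least 1%, 155 were lower at D11, and with members weighted to naive Retnlg levels, chosen after seeing the data, 307 were higher at D14. Among 54 ratios of named genes under 17 settings each, 872 values moved by less than counting error, 43 moved by more and 3 changed sign, all at D11, where Chil3 was -0.84 with Retnlg of at least 1% and -0.27 without the highest Scrublet scores, and Ahnak was -0.30 in members with few other-lineage transcripts, also chosen after seeing the data. Among 36 list medians, 587 values moved by less and 25 by more. The causes were not tested. Genes with under 5 naive UMIs are limited by the naive sum of 731123 UMIs.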
